A study of Mus musculus with 39 samples.

Results

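The genes described here are 10 genes of fat storage and fat release, followed in the gastrocnemius of mice carrying a tumour. They are 4 perilipins (Plin1, Plin2, Plin4 and Plin5), 3 lipases (Pnpla2, Lipe and Lpl) and 3 genes known for their expression in adipocytes (Adipoq, Cfd and Fabp4). They were chosen by symbol from 46078 genes in the deposited count files, matched to their Ensembl identifiers, and all 10 were among the 14689 genes with enough reads to be tested. The gastrocnemius is a calf muscle made up mostly of fast fibres, and bulk muscle also holds blood vessels, connective tissue cells and some adipocytes between the fibres.

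The study used C57BL/6 mice. Lewis lung carcinoma (LLC) cells, a line from a mouse lung tumour that is used to model cancer cachexia, were injected in the flank at 8 weeks of age, and controls received phosphate-buffered saline (PBS). The groups were PBS (0 days, n = 8) and tumours of 7, 14, 21 and 28 days, called weeks 1 to 4 (n = 8, 7, 7 and 8 libraries). The labels name no transgene or other treatment. Week 3 replicate 2 was not analysed here, as the sources used here held no count file for it. Per the series description, muscle wasting was seen at the last time. The sources used here do not give the age of the PBS mice at collection, so age and tumour time cannot be told apart. Beyond a number for each sample the labels do not describe the animals. The p-values therefore speak only of the spread among the samples given, which may in part be technical.

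Fat in cells is kept in lipid droplets coated with perilipins, which control the access of lipases to the stored triglyceride. Adipose triglyceride lipase (Pnpla2) takes the first fatty acid from a triglyceride and hormone-sensitive lipase (Lipe) acts on the diglyceride that remains. Lipoprotein lipase (Lpl) works outside the cell, on the wall of capillaries, where it frees fatty acids from circulating lipoproteins. Skeletal muscle makes several of these proteins itself to fuel its fibres, while adiponectin (Adipoq) and adipsin (Cfd) are secreted by adipocytes.

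The libraries held 13356756 to 24801565 reads in genes (median 18295112). The libraries' sequencing lanes, read from the file names, were spread unevenly over the groups. Week 4 lay in lanes 2 and 4 and PBS in lanes 5 and 6, so lane and group cannot be told apart in that pair alone. The other weeks link the lanes. A fit with a term for lane 2 and a fit without the lane 2 libraries are therefore given beside the calls at week 4. Muscle genes marked every library as muscle: the skeletal actin gene Acta1 had 7881 to 36843 CPM (read counts scaled for library size, with trimmed mean of M values, or TMM, factors). Leptin (Lep), a defining adipocyte product, had group medians of 0.66 to 2.54 CPM. The brown fat gene Ucp1 was at 0 CPM in 7 of 8 week 4 libraries and 7 of 8 PBS libraries. PBS replicate 1 stood apart in macrophage markers, with 1189 CPM summed over 14 markers, against 99.6 to 235 CPM in the other 7 PBS libraries.

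Per kilobase of the main coding transcript, the mean level over all 38 libraries was highest for Fabp4 (301 CPM per kb), followed by Lpl (198), Pnpla2 (84.3), Plin4 (59.6) and Cfd (45.0). Plin2 (13.8 CPM per kb), Plin5 (8.01), Adipoq (6.55), Lipe (5.41) and Plin1 (1.06) lay lower. All annotated exons together hold 4489 bases for Fabp4, against 896 in its main transcript, and 10478 against 4115 for Lpl. The order of the highest genes therefore depends on the length used. The fewest reads behind any value were 4, for Plin1, and 21, for Adipoq. Plin4 had at least 2995 reads and Pnpla2 at least 1971 reads in every library. In bulk muscle, fewer cells of a type and less RNA per cell cannot be told apart.

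**Figure D1:**
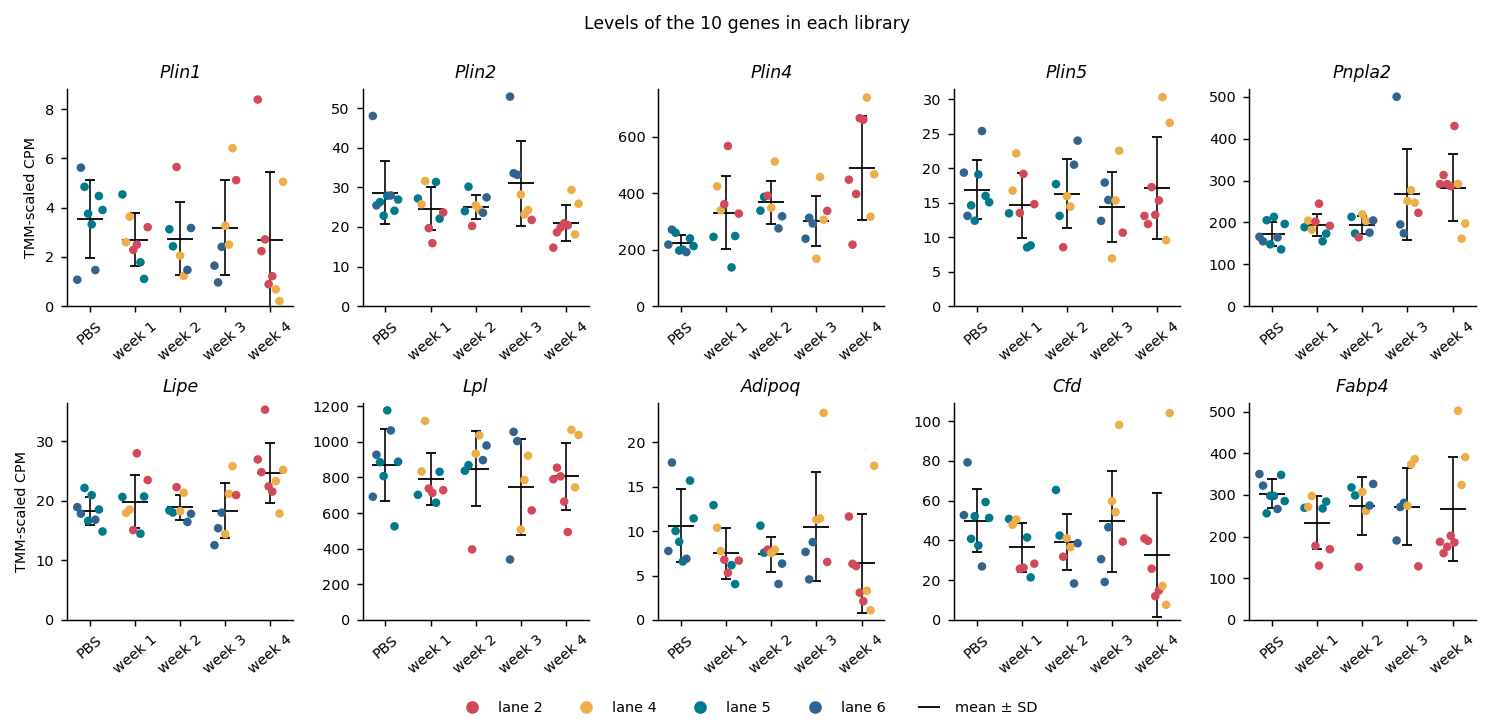
TMM-scaled CPM of each gene (y axis, from 0) in each library, by group from PBS to week 4 (x axis). Points are libraries coloured by lane and bars are mean ± SD, cut at 0 where they would pass below it. Plin4 was 218 to 739 CPM at week 4 against 192 to 271 CPM in PBS muscles, while Cfd ran from 7.62 to 104 CPM at week 4 against 26.9 to 79.3 CPM in PBS muscles.

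At week 4, 4 of the 10 genes differed from PBS (edgeR quasi-likelihood test, Benjamini-Hochberg adjusted p under 0.05 over all 14689 genes), beside 29.4% of all genes tested. Plin4, Pnpla2 and Lipe rose, beside 15.3% of all genes that rose, and Plin2 fell, beside 14.1% that fell. The median log2 fold change of the 10 genes was -0.15, beside -0.02 over all genes tested. DESeq2 called the same 4 genes, and limma voom called those and also Adipoq (-0.86 ± 0.35, adjusted p = 0.043) and Fabp4 (-0.47 ± 0.19, adjusted p = 0.036), both lower. With no filter on low counts, edgeR called 3, as Plin2 was at an adjusted p of 0.063. With a lane 2 term 1 of the 10 genes passed, Plin4, beside 5.64% of all genes. Without the lane 2 libraries, which leaves 3 libraries at week 4, Plin4 again was the 1 gene to pass, beside 0.894%. With a term for every lane none of the 10 passed (edgeR, beside 0.633% of all genes), although Plin4 and Pnpla2 were under 0.05 before adjustment.

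At week 1 none of the 10 genes passed (edgeR, beside 0.0613% of all genes), and 1 had an unadjusted p under 0.05. The same counts held at week 2, where 0% of all genes passed, and at week 3, where 0.347% passed. Of all 14689 genes tested, 1274, 1143 and 1579 had an unadjusted p under 0.05 at weeks 1, 2 and 3 (edgeR). DESeq2 and limma voom also called 0 of the 10 at weeks 1 and 2. At week 3 DESeq2 called 1, Pnpla2, and limma voom called 0. The log2 fold changes ran from -0.50 (Adipoq) to 0.57 (Plin4) at week 1, from -0.51 (Adipoq) to 0.71 (Plin4) at week 2, and from -0.23 (Plin5) to 0.63 (Pnpla2) at week 3. An F test of any difference among the 5 groups called 2 of the 10, Plin4 (adjusted p = 0.0042) and Pnpla2 (adjusted p = 0.0037), beside 21.9% of all genes. That test called none of the 10 without the lane 2 libraries or with a term for every lane (edgeR), where 3 and 2 of them had an unadjusted p under 0.05.

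Among the weeks themselves, 1 of the 10 genes differed between week 4 and week 1 (Pnpla2, higher, beside 22.6% of all genes in either direction and 12.9% higher) and 2 between week 4 and week 2 (Pnpla2 and Lipe, higher, beside 23.6% in either direction and 13.5% higher). Between week 4 and week 3 none passed (edgeR, beside 3.51% of all genes), while limma voom called 2 and DESeq2 3. Before adjustment 3 were under 0.05 with edgeR, beside 3594 of all 14689 genes. These last 3 were Plin2 (-0.56 ± 0.17, adjusted p = 0.052), Plin4 (0.70 ± 0.23, adjusted p = 0.067) and Lipe (0.43 ± 0.14, adjusted p = 0.068). Between weeks 1, 2 and 3 none of the 10 passed by edgeR, DESeq2 or limma voom (edgeR called 1.06%, 0.429% and 0.0477% of all genes for week 3 over week 1, week 3 over week 2 and week 2 over week 1), and 1, 1 and 0 had an unadjusted p under 0.05. Beside these counts, 1943, 1547 and 445 of all 14689 genes were under 0.05 before adjustment (edgeR).

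**Figure D2:**
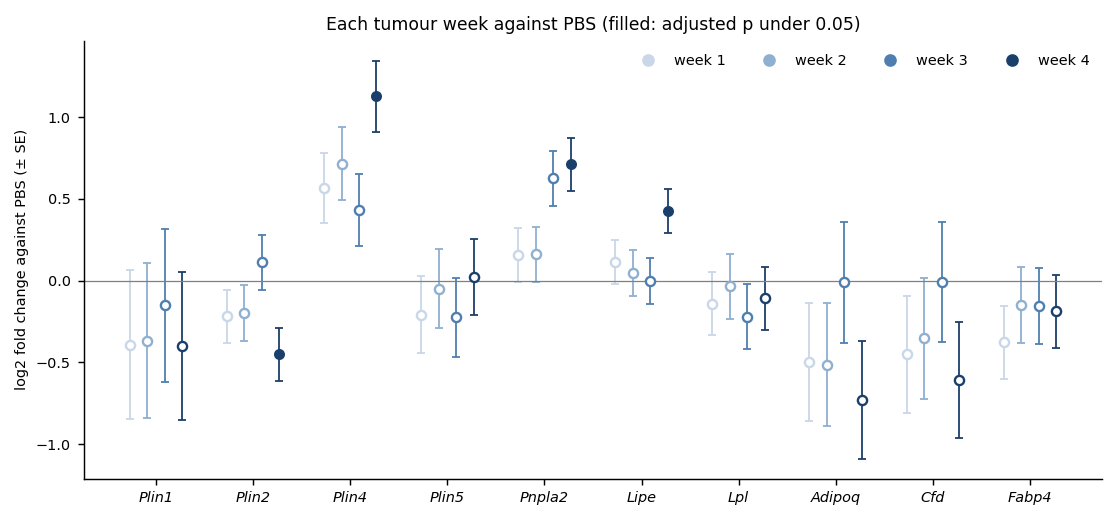
Log2 fold change ± SE against PBS (y axis) for the 10 genes (x axis) at weeks 1 to 4, from the edgeR fit of all libraries. Filled points passed an adjusted p of 0.05: Plin4, Pnpla2, Lipe and Plin2, all at week 4.

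Among the perilipins, Plin4 showed the largest log2 fold change at week 4. Plin4 encodes a droplet coat protein with a long repeated amphipathic region that binds newly formed droplets, and it is found in white fat and in muscle. The gene (ENSMUSG00000002831) lies at chr17:56100591-56109803 on the minus strand of GRCm38, and 17 of its exonic bases are shared with Hdgfl2 on the other strand. It measured 192 to 271 CPM in PBS muscles (median 215), 137 to 567 CPM at week 1 (median 334), 275 to 512 CPM at week 2 (median 348), 168 to 458 CPM at week 3 (median 306) and 218 to 739 CPM at week 4 (median 457.5). All 7 libraries of week 2 lay above all 8 of PBS, yet the week 2 difference had an adjusted p of 0.34 (edgeR). The share of all genes that separate in this way at week 2 is not given here. At week 4 replicate 2 (218 CPM) lay among the PBS values and the other 7 lay above them. Mean levels were 489 ± 184 CPM at week 4 and 224 ± 29.9 CPM in PBS muscles (SD, n = 8 each).

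Plin4 at week 4 was 2.19-fold of PBS (log2 fold change 1.13 ± 0.22 SE, edgeR adjusted p = 0.0005), and the call held in all 16 fits that left out 1 library of the pair, at 1.02 to 1.24. It was 1.00 ± 0.24 (adjusted p = 0.011) with a lane 2 term and 1.18 ± 0.25 (adjusted p = 0.014) without the lane 2 libraries. With a term for every lane it was 0.61 ± 0.27 (adjusted p = 0.24). The earlier weeks were at 0.57 ± 0.22 (week 1, adjusted p = 0.49), 0.71 ± 0.22 (week 2, adjusted p = 0.34) and 0.43 ± 0.22 (week 3, adjusted p = 0.48) against PBS. In order of mean level, PBS came below week 3, week 1, week 2 and week 4, and no 2 neighbours in that order differed by the test. The week 1 libraries also split by lane: Plin4 was 137 to 248 CPM in the 3 of lane 5 and 328 to 567 CPM in the 5 of lanes 2 and 4. In lane 5 alone, shared by week 1 and PBS, the difference was -0.08 (adjusted p = 0.995). In the authors' deposited tables Plin4 is listed at week 4 (log2 fold change 1.05 ± 0.19, adjusted p = 2.8e-06) and also at week 2 (0.63 ± 0.11, adjusted p = 2.3e-05) against PBS. Their week 2 table lists 100 genes, while the edgeR fit used here called 0 of 14689 at week 2. The reason for that difference was not tested.

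Plin2, the perilipin of most cells that store small amounts of fat, muscle fibres and lipid-laden macrophages included, moved the other way. The gene (ENSMUSG00000028494) lies at chr4:86648386-86670060, minus strand. It measured 22.8 to 48.0 CPM in PBS muscles (median 26.6), 15.9 to 31.6 CPM at week 1 (median 24.7), 20.2 to 30.2 CPM at week 2 (median 24.4), 21.8 to 52.9 CPM at week 3 (median 28.1) and 14.8 to 29.3 CPM at week 4 (median 20.2). The groups overlapped, with 6 of 8 week 4 libraries below the lowest PBS library. Mean levels were 21.0 ± 4.59 CPM at week 4 and 28.7 ± 8.02 CPM in PBS muscles (SD, n = 8 each).

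Plin2 fell by 0.45 on the log2 scale at week 4 (SE 0.16, edgeR adjusted p = 0.035). The highest PBS value, 48.0 CPM, belonged to PBS replicate 1, the library with raised macrophage markers, and without it the log2 fold change was -0.30 with an adjusted p of 0.13. The call held in 9 of 16 fits with 1 library of the pair left out. Plin2 was also lower in lane 2 than in the other lanes (-0.44 ± 0.12, adjusted p = 0.0054), and with a lane 2 term the week 4 difference was -0.19 ± 0.16 (adjusted p = 0.49). Within lane 2, Plin2 was 14.8 to 20.9 CPM in the 5 week 4 libraries and 15.9 to 23.7 CPM in the 3 of week 1. Against week 3 the difference at week 4 was -0.38 (adjusted p = 0.11) without week 3 replicate 1, the highest library at 52.9 CPM.

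Plin5 and Plin1 did not pass against PBS at any week, by edgeR, DESeq2 or limma voom. Plin5 (ENSMUSG00000011305, chr17:56111601-56117596, minus strand), which lies next to Plin4 and tethers droplets to mitochondria in oxidative tissue, averaged 17.1 ± 7.38 CPM at week 4 and 16.9 ± 4.26 CPM in PBS muscles (SD, n = 8 each). Its log2 fold change was 0.02 ± 0.23 at week 4 (edgeR adjusted p = 0.95), an error wide enough to leave a change of either sign. Plin1 (ENSMUSG00000030546, chr7:79720218-79732903, minus strand), the main droplet coat of adipocytes, was the lowest of the 10 per kilobase. It ran from 0.21 to 8.39 CPM at week 4 (mean 2.67 ± 2.77) and from 1.07 to 5.63 CPM in PBS muscles (mean 3.56 ± 1.58), a difference of -0.40 ± 0.45 (adjusted p = 0.53).

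Of the lipases, Pnpla2 rose at week 4. The gene (ENSMUSG00000025509) lies at chr7:141455198-141460743 on the plus strand. It measured 136 to 213 CPM in PBS muscles (median 165), 155 to 245 CPM at week 1 (median 190.3), 164 to 219 CPM at week 2 (median 204), 174 to 500.4 CPM at week 3 (median 247) and 161 to 430.5 CPM at week 4 (median 292). At week 4, 6 of 8 libraries lay above the highest PBS library, and replicates 7 and 8 did not. Mean levels were 283 ± 80.2 CPM at week 4 and 173 ± 28.6 CPM in PBS muscles (SD, n = 8 each).

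The week 4 level of Pnpla2 was 1.64-fold of PBS (log2 fold change 0.71 ± 0.16, edgeR adjusted p = 0.0022), and the call held in all 16 fits with 1 library of the pair left out, at 0.60 to 0.80. It was 0.57 ± 0.19 (adjusted p = 0.058) with a lane 2 term and 0.33 ± 0.21 (adjusted p = 0.59) without the lane 2 libraries. The week 4 libraries overlapped between lanes, with 287 to 430.5 CPM in the 5 of lane 2 and 161 to 292 CPM in the 3 of lane 4. Over all groups the lane 2 term of Pnpla2 was 0.20 ± 0.14 (edgeR adjusted p = 0.29). Over the earlier weeks, Pnpla2 at week 4 lay above week 1 (0.55 ± 0.16, adjusted p = 0.014) and week 2 (0.55 ± 0.17, adjusted p = 0.019). The week 1 difference kept an adjusted p of 0.030 with a lane 2 term, and the week 2 difference had 0.12. Without the lane 2 libraries these were 0.71 and 0.89. Neither passed without week 4 replicate 5, the highest of its group. At week 3 all 7 libraries lay above the PBS mean (0.63 ± 0.17, adjusted p = 0.10). The highest of them, replicate 1 at 500.4 CPM, was a library with 71558 CPM summed over 10 muscle markers, against 117871 to 194334 CPM in the other 6. Without it the week 3 difference was 0.40 (adjusted p = 0.56).

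Lipe rose less. The gene (ENSMUSG00000003123) lies at chr7:25379527-25398710, minus strand, and 918 of its exonic bases are shared with the antisense gene 4732471J01Rik. The sources used here give no strand setting for the counting, so reads of the pair cannot be told apart. Lipe measured 14.8 to 22.1 CPM in PBS muscles (median 18.2), 14.5 to 27.9 CPM at week 1 (median 19.6), 16.4 to 22.3 CPM at week 2 (median 18.2), 12.5 to 25.8 CPM at week 3 (median 18.0) and 17.8 to 35.3 CPM at week 4 (median 24.0). At week 4, 6 of 8 libraries lay above the highest PBS library.

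Mean Lipe was 24.6 ± 5.08 CPM at week 4 and 18.3 ± 2.37 CPM in PBS muscles (SD, n = 8 each), a log2 fold change of 0.43 ± 0.13 (edgeR adjusted p = 0.016). The call was lost without week 4 replicate 3 (35.3 CPM), at 0.34 with an adjusted p of 0.058, and held in the other 15 fits with 1 library of the pair left out. With a lane 2 term it was 0.26 ± 0.14 (adjusted p = 0.24), and without the lane 2 libraries 0.27 ± 0.16 (adjusted p = 0.55). Lipe at week 4 was also above week 2 (0.38 ± 0.14, adjusted p = 0.044). That call held in 5 of 15 fits with 1 library of the pair left out. It was lost with a lane 2 term and without the lane 2 libraries. In the authors' deposited tables Pnpla2 (0.68 ± 0.16, adjusted p = 0.00064), Lipe (0.43 ± 0.13, adjusted p = 0.0070) and Plin2 (-0.41 ± 0.15, adjusted p = 0.035) are listed for week 4 against PBS.

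Lpl (ENSMUSG00000015568, chr8:68880491-68907448, plus strand) had the most reads of the 10 genes and did not pass against PBS at any week, by edgeR, DESeq2 or limma voom. It averaged 807 ± 187 CPM at week 4 and 870.2 ± 203 CPM in PBS muscles (SD, n = 8 each), a log2 fold change of -0.11 ± 0.19 (edgeR adjusted p = 0.70). The sign turned with a lane 2 term, to 0.14 ± 0.20 (adjusted p = 0.71). Lpl was lower in lane 2 than in the other lanes (-0.42 ± 0.16, adjusted p = 0.034).

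**Figure D3:**
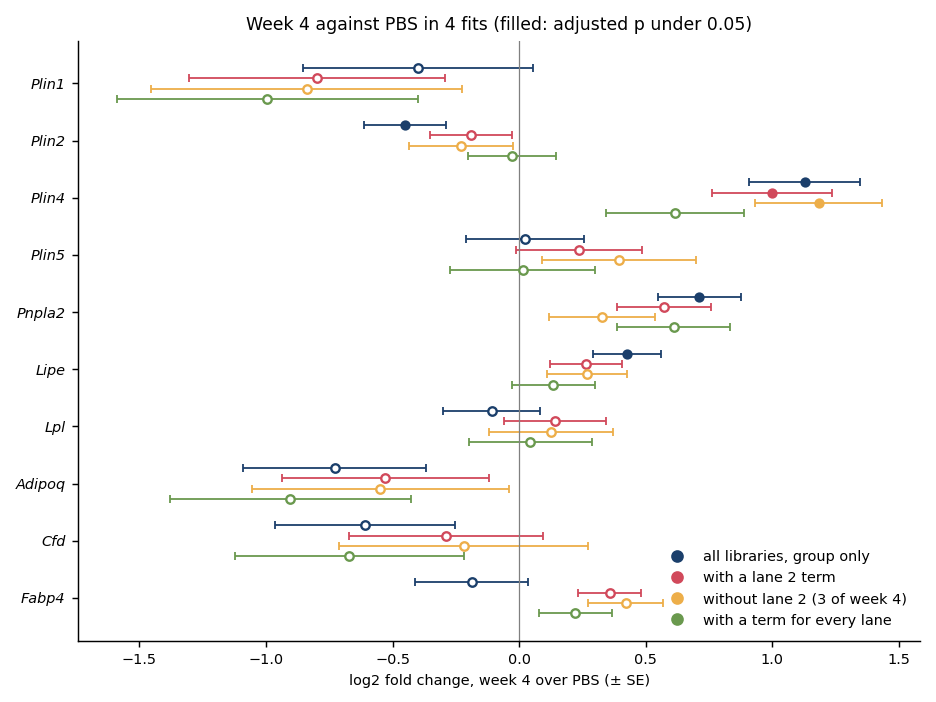
Log2 fold change ± SE at week 4 over PBS (x axis) for the 10 genes (rows) in 4 edgeR fits that treat the lanes differently; filled points passed an adjusted p of 0.05. Plin4 passed in 3 of the 4 fits, and Fabp4 and Lpl changed sign between the group-only fit and the fits that account for lane 2.

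To show the regions from which these transcripts start, the promoter windows of the 4 genes called at week 4 were read from RefSeq (GRCm38.p6, 250 bases before to 50 after the annotated start). Of the 10 genes, 8 matched the table, with 10 windows. Each window was searched on both strands for GTAAACA (the core bound by FoxO factors), AGGTCA (a nuclear receptor half-site), AGAACA (a glucocorticoid receptor half-site), CACGTG (an E-box) and the direct repeat of AGGTCA with any 1 base between (bound by PPAR, and a window with it also counts under AGGTCA). Capitals mark a match. The sequences are given 5′ to 3′ on the strand of the gene, Lipe with the 2 starts that matched:
Plin4, chr17:56109733-56110032, minus strand: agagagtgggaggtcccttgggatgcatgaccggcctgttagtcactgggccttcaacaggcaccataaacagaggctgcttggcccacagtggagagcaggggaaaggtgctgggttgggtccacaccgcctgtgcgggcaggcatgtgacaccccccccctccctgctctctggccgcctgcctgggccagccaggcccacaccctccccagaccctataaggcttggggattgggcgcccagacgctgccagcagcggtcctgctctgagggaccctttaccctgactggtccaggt
Pnpla2, chr7:141454938-141455237, plus strand: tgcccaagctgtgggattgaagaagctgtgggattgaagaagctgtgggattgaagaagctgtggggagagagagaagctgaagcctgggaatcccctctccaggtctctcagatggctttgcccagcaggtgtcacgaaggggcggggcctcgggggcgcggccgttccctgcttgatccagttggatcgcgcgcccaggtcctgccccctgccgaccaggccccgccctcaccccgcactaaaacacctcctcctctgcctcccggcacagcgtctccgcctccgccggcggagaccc
Lipe start 1, chr7:25395938-25396237, minus strand: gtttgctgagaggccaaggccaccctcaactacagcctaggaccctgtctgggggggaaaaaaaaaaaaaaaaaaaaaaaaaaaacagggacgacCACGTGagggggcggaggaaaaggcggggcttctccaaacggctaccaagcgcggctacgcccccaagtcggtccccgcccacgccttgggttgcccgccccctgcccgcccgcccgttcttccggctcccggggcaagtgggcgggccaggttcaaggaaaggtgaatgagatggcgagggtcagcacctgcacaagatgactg
Lipe start 2, chr7:25390063-25390362, minus strand: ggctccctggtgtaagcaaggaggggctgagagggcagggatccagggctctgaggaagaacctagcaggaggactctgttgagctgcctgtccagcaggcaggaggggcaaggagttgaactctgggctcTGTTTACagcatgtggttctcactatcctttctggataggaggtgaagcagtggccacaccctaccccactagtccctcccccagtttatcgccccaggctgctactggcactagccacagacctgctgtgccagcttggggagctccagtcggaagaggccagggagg
Plin2, chr4:86670010-86670309, minus strand: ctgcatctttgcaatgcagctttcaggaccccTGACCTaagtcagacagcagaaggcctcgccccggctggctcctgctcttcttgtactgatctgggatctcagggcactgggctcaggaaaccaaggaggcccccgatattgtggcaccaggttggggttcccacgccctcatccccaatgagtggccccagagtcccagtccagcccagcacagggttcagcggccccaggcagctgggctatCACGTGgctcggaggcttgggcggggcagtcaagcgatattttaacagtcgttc

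The Plin4 and Pnpla2 windows held none of the 5 motifs. The Plin2 window held the half-site AGGTCA on the strand opposite the gene (printed as TGACCT), 218 bases before the start, and an E-box 4 bases before it. Lipe start 1 had an E-box 155 bases before the start, and Lipe start 2 had the FoxO core on the strand opposite the gene (printed as TGTTTAC), 119 bases before it. Of all 32851 windows in the table, 3.65% hold GTAAACA, 16.3% hold AGGTCA, 19.0% hold AGAACA, 7.15% hold CACGTG and 0.0396% hold the direct repeat. A match is a match of letters and no more.

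Fabp4 encodes a fatty acid carrier of adipocytes that is also made by capillary endothelium and macrophages. The gene (ENSMUSG00000062515) lies at chr3:10204088-10208576, minus strand. It measured 256 to 350.0 CPM in PBS muscles (median 298), 130.3 to 297 CPM at week 1 (median 268), 127 to 326 CPM at week 2 (median 299), 129 to 386 CPM at week 3 (median 274) and 160.3 to 502 CPM at week 4 (median 195). The 2 ends of the week 4 range came from different lanes. The 5 week 4 libraries of lane 2 were at 160.3 to 202 CPM, all below PBS, and the 3 of lane 4 were at 324 to 502 CPM, 2 of them above every PBS library.

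The same split ran through the other weeks. In lane 2, Fabp4 was 130.3 to 178 CPM at week 1 (3 libraries), 127 CPM at week 2 (1 library) and 129 CPM at week 3 (1 library). No library of lanes 4, 5 and 6 was below 190.7 CPM. The lowest of them, week 3 replicate 1 of lane 6, lay under the highest lane 2 library, week 4 replicate 4 at 202 CPM. In the fit of all groups with a lane 2 term, Fabp4 was lower in lane 2, at -1.05 ± 0.10 on the log2 scale (edgeR adjusted p = 7.4e-11). Of the 10 genes, 3 passed for that term (Fabp4, Plin2 and Lpl, all lower), beside 35% of all genes tested and 18.5% that were lower.

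The group differences of Fabp4 depended on the treatment of lane 2. At week 4 the log2 fold change against PBS was -0.19 ± 0.22 (edgeR adjusted p = 0.55) by group alone, 0.36 ± 0.12 (adjusted p = 0.072) with a lane 2 term and 0.42 ± 0.15 (adjusted p = 0.21) without the lane 2 libraries. With the lane 2 term Fabp4 was higher at week 4 than at week 1 (0.38 ± 0.11, adjusted p = 0.014, beside 21.5% of all genes) and week 2 (0.41 ± 0.12, adjusted p = 0.030, beside 10.8%). By group alone these differences were 0.19 ± 0.22 (adjusted p = 0.57) and -0.04 ± 0.23 (adjusted p = 0.92). Without the lane 2 libraries they were 0.54 ± 0.16 (adjusted p = 0.13) and 0.43 ± 0.16 (adjusted p = 0.31). Limma voom by group alone called Fabp4 lower at week 4 than at week 2 (-0.44, adjusted p = 0.048), so the direction of that call turned with the fit.

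**Figure D4:**
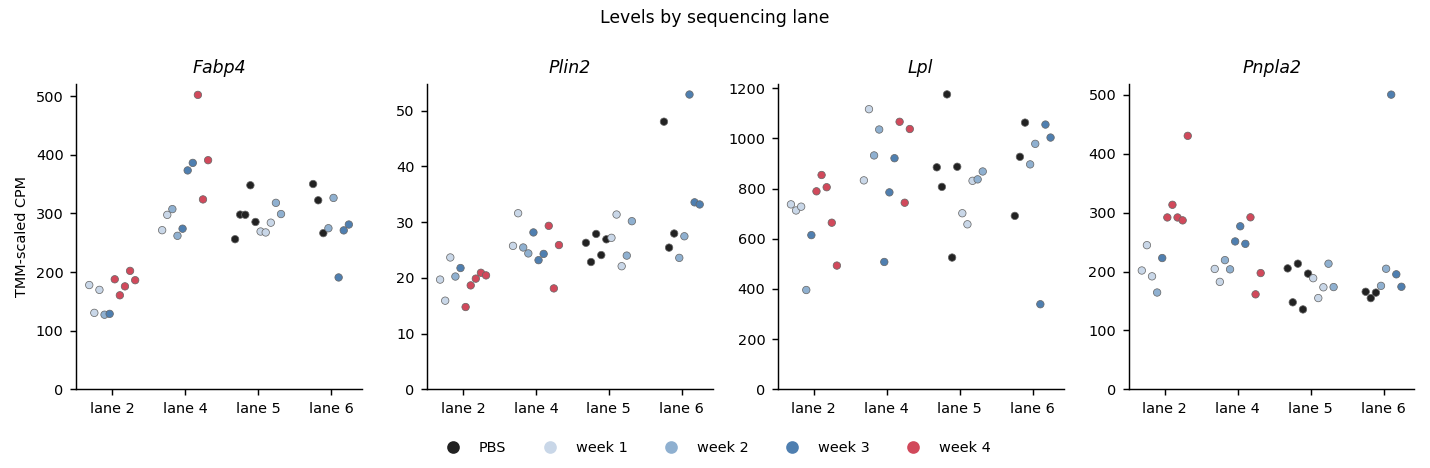
TMM-scaled CPM (y axis, from 0) of Fabp4, Plin2, Lpl and Pnpla2 by sequencing lane (x axis), with libraries coloured by group. All 10 lane 2 libraries of Fabp4 lay at or under 202 CPM, whatever their week.

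Adipoq and Cfd did not pass against PBS at any week by edgeR or DESeq2, while limma voom called Adipoq lower at week 4 and left Cfd at an adjusted p of 0.060. Their SD relative to the mean was widest at week 4. Adipoq (ENSMUSG00000022878, chr16:23146536-23158028, plus strand) measured 6.59 to 17.7 CPM in PBS muscles (median 9.41), 4.04 to 12.9 CPM at week 1 (median 6.73), 4.05 to 10.6 CPM at week 2 (median 7.58), 4.57 to 23.3 CPM at week 3 (median 8.77) and 1.10 to 17.4 CPM at week 4 (median 4.68). At week 4, 6 of 8 libraries lay below the lowest PBS library, while replicates 1 and 8 lay within the PBS range. The log2 fold change was -0.73 ± 0.36 (edgeR adjusted p = 0.12).

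Cfd (ENSMUSG00000061780, chr10:79890853-79892655, plus strand) measured 26.9 to 79.3 CPM in PBS muscles (median 51.8), 21.4 to 50.8 CPM at week 1 (median 34.9), 18.4 to 65.4 CPM at week 2 (median 38.6), 19.1 to 98.1 CPM at week 3 (median 46.7) and 7.62 to 104 CPM at week 4 (median 21.5). Replicate 8 of week 4, at 104 CPM, was above every PBS library, and 5 of the 8 were below every PBS library. The log2 fold change was -0.61 ± 0.36 (edgeR adjusted p = 0.20). Without week 4 replicate 8 the differences were -1.13 for Adipoq (adjusted p = 0.011) and -1.14 for Cfd (adjusted p = 0.0056), and both passed. For each gene this was the 1 call in 16 fits with 1 library of the pair left out. The log2 fold changes in those fits ran from -1.13 to -0.57 for Adipoq and from -1.14 to -0.46 for Cfd. With a lane 2 term they were -0.53 ± 0.41 (adjusted p = 0.44) for Adipoq and -0.29 ± 0.38 (adjusted p = 0.68) for Cfd.

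Within groups, Adipoq, Cfd and Plin1 went up and down together from library to library. After log2(CPM + 0.5) was centred on each group's mean, Adipoq correlated over 38 libraries with Cfd (Pearson r = 0.92, Spearman rho = 0.89) and with Plin1 (r = 0.80, rho = 0.73). Permutation tests within groups, adjusted over 9 pairs, gave p = 4.5e-05 for both r and p = 9.0e-05 for both rho, from an unadjusted p for r that is the smallest 100000 permutations can give, 1.0e-05. Within lanes 2, 4, 5 and 6 (n = 10, 10, 10 and 8), r with Cfd was 0.85, 0.98, 0.85 and 0.91, and r with Plin1 was 0.78, 0.93, 0.78 and 0.82. Without the 2 libraries farthest from the median of Adipoq, week 4 replicates 7 and 8, r was 0.88 with Cfd and 0.74 with Plin1.

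The other 7 genes did not pass in the same family of 9 pairs. Lipe had r = 0.36 and rho = 0.35 with Adipoq (adjusted permutation p = 0.16 and 0.15), and Fabp4 had r = 0.16 and rho = 0.18 (adjusted permutation p = 0.81 and 0.65). Pnpla2 (r = 0.00, rho = 0.05) and Plin4 (r = 0.02, rho = 0.04) lay near 0, with adjusted permutation p of 0.99 and 0.91 for each. Plin2 had r = -0.08, rho = -0.16, Plin5 r = 0.16, rho = 0.02 and Lpl r = 0.09, rho = 0.04, with adjusted permutation p of 0.65 to 0.91. Some of these pooled values joined lanes of opposite sign. Within lanes 2, 4, 5 and 6, r was -0.59, 0.18, 0.23 and 0.54 for Plin4 and -0.24, 0.50, 0.47 and -0.67 for Plin5. The differences between lanes were not tested.

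**Figure D5:**
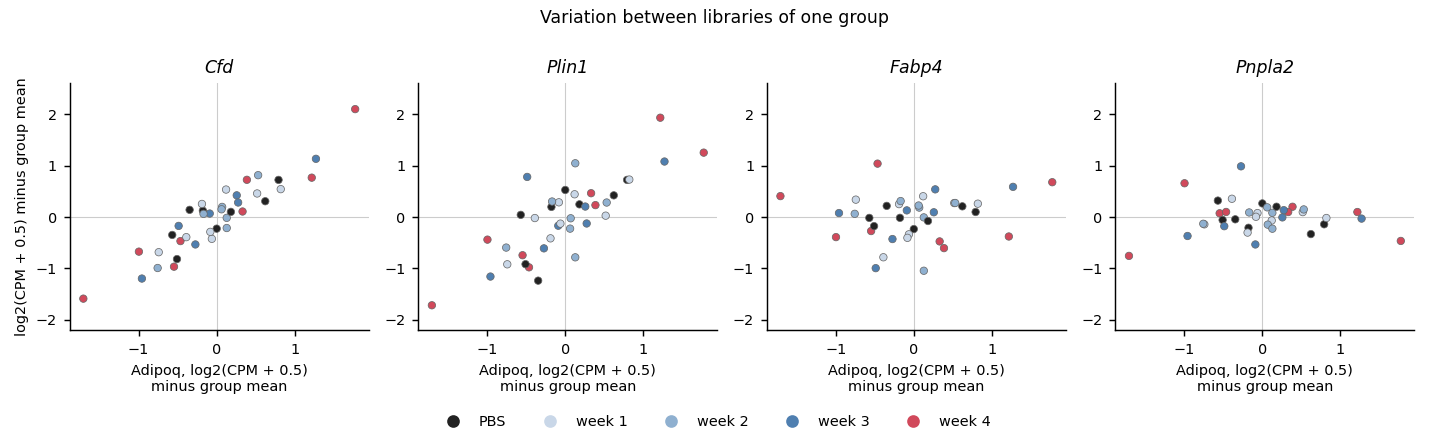
Log2(CPM + 0.5) minus the group mean of Cfd, Plin1, Fabp4 and Pnpla2 (y axes) against the same for Adipoq (x axes), 1 point a library, coloured by group. Cfd and Plin1 rise with Adipoq (r = 0.92 and 0.80), while Fabp4 and Pnpla2 do not line up with it (r = 0.16 and 0.00).

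The genes most like each of 5 members, by the Pearson r of these centred values over 38 libraries, differed in kind. For Adipoq they were Cidec (r = 0.89), a droplet protein of adipocytes, Cyp2e1 (0.88), Smoc1 (0.83), the receptor gene Acvr1c (0.82) and Pck1 (0.81), the enzyme of glyceroneogenesis. Cidec, Acvr1c and Pck1 are also on the adipocyte list below. For Fabp4 they were S100a13 (0.93), the ribosomal protein genes Rps21 and Rpl36 (0.92 each), the copy Rps10-ps1 (0.92) and Rpl34 (0.92). For Lpl they were Ldhb (0.90), Acaa2 (0.90), Fxyd6 (0.90), Idh2 (0.88) and Mdh1 (0.87), mostly enzymes of mitochondrial and lactate metabolism. For Pnpla2 they were Hgs (0.88), Eif3b (0.88), Mroh1 (0.87), Myh14 (0.87) and Psmd3 (0.86), and for Plin2 they were Rnh1 (0.78), Nme1 (0.73), Nkiras1 (0.73), Ddx39 (0.72) and Hgh1 (0.71). These libraries share lanes and depth, and the values are descriptions.

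The lists that follow were counted in the fit of all libraries by group alone unless another fit is named. There, 15.3% of all genes were higher and 14.1% lower at week 4 than in PBS muscles. With a lane 2 term 5.64% of all genes passed, and without the lane 2 libraries 0.894%. The share without PBS replicate 1 is not given here. Other adipocyte markers were low and few of them passed. Of 16 tested, 0 were higher and 3 lower at week 4 than in PBS muscles: the desaturase gene Scd1 (-1.41 ± 0.42, edgeR adjusted p = 0.012), the resistin gene Retn (-1.13 ± 0.41, adjusted p = 0.036) and Thrsp (-0.70 ± 0.26, adjusted p = 0.037). The list's median log2 fold change was -0.38. With a lane 2 term or without PBS replicate 1, 1 passed, Scd1, and without the lane 2 libraries none did (edgeR, 1 at an unadjusted p under 0.05). Summed over the list, the markers reached 47.6 to 176 CPM at week 4 (median 70.0) and 85.8 to 200.1 CPM in PBS muscles (median 168). Scd1, which muscle also expresses, made up 74.5 CPM of this on average in PBS muscles. Week 4 replicate 8, the library with the highest Adipoq and Cfd of its group, was the highest of the 8 in this sum, and replicates 5 and 7, the lowest in Adipoq, were the lowest. Their part in the levels of Adipoq, Cfd and Plin1 was not tested.

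Genes that act beside the lipases mostly did not pass. Of 13 tested partners of lipolysis and other droplet proteins, 1 was higher at week 4, Faf2 (0.45 ± 0.10, edgeR adjusted p = 0.0019), which controls the turnover of adipose triglyceride lipase, and 0 were lower. The lipase inhibitor G0s2 was at -0.63 ± 0.30 (adjusted p = 0.11), with 11.6 ± 6.17 CPM at week 4 and 17.9 ± 5.39 CPM in PBS muscles. Of 6 tested partners of lipoprotein lipase, 1 was higher, Sel1l (0.27 ± 0.10, adjusted p = 0.037), which serves its folding, and Gpihbp1, which carries the lipase across the capillary wall, was at 0.31 ± 0.22 (adjusted p = 0.28). None of either list passed with a lane 2 term (edgeR, 2 and 1 at an unadjusted p under 0.05) or without the lane 2 libraries (0 and 1), and without PBS replicate 1 each had 2 higher.

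Of 14 tested genes of triglyceride synthesis and droplet formation, 3 were higher and 2 lower at week 4, together 5 of 14 beside 29.4% of all genes. The 3 were the lipins, which make the diglyceride that triglyceride is built from: Lpin1 (0.80 ± 0.17, edgeR adjusted p = 0.0014), Lpin2 (1.32 ± 0.37, adjusted p = 0.0077) and Lpin3 (0.74 ± 0.22, adjusted p = 0.011). Lpin1 reached 733 ± 256 CPM at week 4 and 422 ± 77.6 CPM in PBS muscles. Fitm1 (-0.72 ± 0.25, adjusted p = 0.030) and the seipin gene Bscl2 (-0.25 ± 0.09, adjusted p = 0.038), both of droplet formation, were lower. None of the 14 passed with a lane 2 term or without the lane 2 libraries (edgeR, 3 and 1 at an unadjusted p under 0.05).

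Among 14 tested regulators of lipid use, 4 were higher and 1 lower at week 4, again 5 of 14 beside 29.4% of all genes. Higher were Ppard (0.67 ± 0.15, edgeR adjusted p = 0.0015), Insr (0.35 ± 0.09, adjusted p = 0.0046), Foxo1 (1.08 ± 0.30, adjusted p = 0.0083) and the fatty acid transporter gene Cd36 (0.46 ± 0.13, adjusted p = 0.0095), and lower was Fabp3 (-1.06 ± 0.41, adjusted p = 0.049), the fatty acid carrier of muscle. With a lane 2 term Cd36 was the 1 gene to pass, and without the lane 2 libraries none did (edgeR, 2 at an unadjusted p under 0.05). Foxo1 had 42.5 ± 21.2 CPM at week 4 and 20.1 ± 4.20 CPM in PBS muscles.

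Markers of other cells moved at week 4 as well, and their part in the members' differences was not tested. Of 12 endothelial markers 8 were higher and 0 lower (median log2 fold change 0.46), led by Vwf (1.35 ± 0.16, edgeR adjusted p = 3.4e-07) and Pecam1 (0.87 ± 0.10, adjusted p = 3.4e-07). With a lane 2 term 6 were higher, and without the lane 2 libraries 4 were. Their summed level was 654 to 1009 CPM at week 4 and 509 to 649.7 CPM in PBS muscles, ranges that nearly met. The highest libraries of weeks 1, 2 and 3, at 761, 795 and 737 CPM, lay inside the week 4 range. Fabp4 and Gpihbp1 are known from endothelium too.

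Of 12 markers of fibro-adipogenic cells 0 were higher and 4 lower: Smoc2 (-0.47 ± 0.12, edgeR adjusted p = 0.0048), Mfap5 (-0.77 ± 0.20, adjusted p = 0.0051), Col3a1 (-1.14 ± 0.39, adjusted p = 0.025) and Col1a1 (-1.15 ± 0.40, adjusted p = 0.030). Without PBS replicate 1, Smoc2 and Mfap5 passed and both collagen genes did not. In the fit with a lane 2 term 3 were lower (Mfap5, Col3a1 and Col1a1) and 1 higher (Ly6a), and without the lane 2 libraries none of the 12 passed (edgeR), although 7 had an unadjusted p under 0.05. Their summed level was 807 to 1309.9 CPM at week 4 and 866 to 2045 CPM in PBS muscles.

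Of 14 macrophage markers 2 were higher (Cd163 and Cd14) and 2 lower (Ms4a7 and Ctss) at week 4. Without PBS replicate 1 there were 8 higher and 0 lower, and the share of all genes in that fit is not given here. None passed with a lane 2 term or without the lane 2 libraries (edgeR, 3 and 0 at an unadjusted p under 0.05). Of 7 brown fat markers 2 were lower, Cox7a1 and Cox8b, which muscle also expresses, and none passed in these fits (edgeR, 2 and 1 at an unadjusted p under 0.05). Of 10 skeletal muscle markers 4 were lower, led by Mylpf (-0.99 ± 0.28, adjusted p = 0.010), and none passed in these fits (edgeR, 1 and 0 at an unadjusted p under 0.05).

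At weeks 1 to 3 none of these lists had a gene past the threshold against PBS (edgeR), apart from 1 macrophage marker that was lower at week 1. At an unadjusted p under 0.05, 12, 10 and 4 of the 14 macrophage markers passed at weeks 1, 2 and 3, with median log2 fold changes of -1.13, -0.90 and -0.56 against PBS muscles that include replicate 1. Of all 14689 genes tested, 1274, 1143 and 1579 were at that level at these weeks (edgeR). Each other list had 0 to 5 genes at that level in any of these weeks. Summed over the 14 macrophage markers, the median was 148 CPM in PBS muscles, where replicate 1 had 1189 CPM. At weeks 1, 2 and 3 the medians were 130, 149 and 183 CPM, so the typical library did not show falls of that size. A fit of these markers without PBS replicate 1 is not given here for weeks 1 to 3.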

How the data were processed

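Counts of 38 gastrocnemius libraries were analysed, from RNA sequencing with Trizol extraction and a TruSeq RNA kit per the labels' protocols. The deposited files hold raw read counts per Ensembl gene, which the authors made with HISAT2 and HTSeq on GRCm38.p5 per the submitters' processing notes, and FastQC and DESeq2 are also named there; versions and strand setting are not given in the sources used here. The authors' deposited comparison tables give log2 fold changes and adjusted p-values, per the file headers. Rows that name no gene were left out, and 44.5% to 80.9% of all reads of a library were in genes.

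All 38 libraries entered one fit by group in edgeR 4.0.16 (R 4.3.3; TMM factors, at least 10 reads by filterByExpr, quasi-likelihood F test). P-values were adjusted by Benjamini-Hochberg over 14689 genes, with 0.05 as the threshold. The SE is the log2 fold change divided by the square root of F, and a level is TMM-scaled CPM. DESeq2 1.42.0 and limma voom 3.58.1 with quality weights were alternatives, as were other scalings, filters, lane terms and left-out libraries. The fit was tested on simulated counts with known changes. Correlations used 100000 permutations within groups.

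Members and lists were chosen with earlier results of these data known. The text names the 10 members, up to 4 genes of smallest p per list at week 4, and the 5 genes most like each of 5 members. Lep, Ucp1, Acta1, Gpihbp1, Bscl2, Fabp3 and the summed marker levels were added after values were seen, as were the list counts under the lane alternatives and without PBS replicate 1, and the test of lane 2 itself. Gene positions are from GENCODE M21 (GRCm38), which matched 45229 of 46078 identifiers.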

Additional observations from a re-analysis of the deposited data

Results flagged for a closer look

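Of 50 sets of 1 gene in 1 group, 4 held a library far from all others of its group by Dixon's test, and chance alone marks about 1 set in 20. Plin2 was 48.0 CPM in PBS replicate 1 and 22.8 to 28.0 CPM in the other 7 PBS libraries. Lpl was 1117 CPM in week 1 replicate 3 and 658 to 833 CPM in the other 7. Both other sets belong to week 2 replicate 3, the 1 library of that week in lane 2: Lpl was 396 CPM there and 837 to 1036 CPM in the other 6, and Fabp4 was 127 CPM there and 262 to 326 CPM in the other 6.

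In the fit by group alone, the change against PBS differed between weeks for 2 genes, by the edgeR test of the difference itself, in which PBS cancels out. Pnpla2 was higher at week 4 than at week 1 (log2 fold change 0.55, adjusted p = 0.014) and week 2 (0.55, adjusted p = 0.019). Lipe was higher at week 4 than at week 2 (0.38, adjusted p = 0.044). As given above, neither Pnpla2 call held without the lane 2 libraries or without week 4 replicate 5. The Lipe call held in 5 of 15 fits with 1 library of the pair left out and was lost with a lane 2 term.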

How the results depend on the processing

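The count of 4 members called at week 4 against PBS was 1 with a term for lane 2, 1 when the lane 2 libraries were dropped and 0 with a term for every lane, 6 with limma voom, 3 with no filter, and 2 to 6 with 1 library left out. At week 3 against PBS it was 1 with DESeq2 and 0 to 1 with 1 library left out. For week 4 against week 1 it was 2 with a lane 2 term, a term for every lane or DESeq2, 3 with limma voom, 0 without the lane 2 libraries or in shared lanes, and 0 to 3 with 1 library left out. For week 4 against week 2 it was 1 with upper quartile factors, no filter or a lane 2 term. It was also 1 when 4 libraries were left out together: week 3 replicates 1 and 3, week 2 replicate 6 and week 1 replicate 7. With limma voom it was 4, and it was 0 without the lane 2 libraries, with a term for every lane or in shared lanes. With 1 library left out it was 0 to 2. The 1 gene called with a lane 2 term was Fabp4, and neither Pnpla2 nor Lipe passed there. For week 4 against week 3 the count was 1 with RLE or upper quartile factors or a minimum of 5 CPM, 3 with DESeq2, 2 with limma voom and 0 to 4 with 1 library left out. For any difference it was 0 without the lane 2 libraries or with a term for every lane, 4 with limma voom and 2 to 4 with 1 library left out. The cause was not tested.

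Values that changed sign follow, and 1 of them passed in an alternative: Fabp4 at week 4 against week 2, which was 0.41 (adjusted p = 0.030) with a term for lane 2, 0.43 when its libraries were dropped, 0.33 with a term for every lane, 0.49 in shared lanes and -0.23 to 0.041 with 1 library left out. Fabp4 at week 4 against week 1 was -0.18 with limma voom and -0.0067 to 0.27 with 1 library left out. At week 4 against PBS, Plin5 was -0.00097 with upper quartile factors, -0.09 with limma voom and -0.14 to 0.13 with 1 library left out. Lpl was 0.14 with a term for lane 2, 0.12 when its libraries were dropped and 0.043 with a term for every lane, and Fabp4 was 0.36, 0.42 and 0.22 in these fits. Plin4 at week 1 was -0.080 in shared lanes. Of the correlations with Adipoq, Pnpla2 was 0.013 with a pseudocount of 0.1 and 0.075 without the lane 2 libraries. Plin2 was 0.175 and Plin4 -0.271 without centring, and Plin4 was -0.090 and Plin5 -0.089 without the 2 farthest libraries, with group means taken again.

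No paired analysis was possible because the titles give every sample a number or number with letter of its own, and the replicate numbers used here only follow accession order within a group. Week 4 and PBS share no lane, so no value within a lane exists for that pair. With 4 to 183 reads in a library, Plin1 is the least precise.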
